A study of Homo sapiens with 2 samples.

Results

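Genes with the symbol LINC and a number are long intergenic non-coding RNA genes that the human nomenclature committee named before a function was known. Their transcripts are capped, often spliced, and made by RNA polymerase II, as messenger RNAs are, but they carry no long open reading frame. The name is provisional: some of these genes were later renamed for a role, for a neighbour, or for a small protein they were found to encode. In the deposited tables, 134 of 23375 gene rows had a symbol made of LINC followed by digits alone, and these 134 genes are described here. A further 9 rows with a letter or a hyphenated number after the digits were not members.

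RNA was sequenced from 2 cell lines with 1 library each: a SETD2 knockout line, made from 786-O cells with a zinc finger nuclease, and the 786-O line with wild-type SETD2. 786-O, a long-used line from a clear cell renal carcinoma, lacks functional VHL, a background that both forms share, and the labels give both the same growth medium and no agent. SETD2 places the trimethyl mark on lysine 36 of histone H3 over transcribed genes, and the comparison asks which transcripts differ between the line without and the line with intact SETD2. The labels do not say whether the knockout line is 1 clone. With 1 library per line there is no replicate check and no test, and every difference is one between these libraries, not between the conditions.

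The knockout library held 50670012 fragments in genes and the wild-type library 62304084. SETD2 itself was counted in 1404 knockout and 4908 wild-type fragments, a ratio of knockout over wild type of 0.334 (exact 95% counting interval 0.314 to 0.354). Of markers of renal epithelium and clear cell carcinoma, PAX8, PAX2, CDH6, VIM, KRT8 and KRT18 were present in both libraries, and CA9 had 0 knockout fragments and 1 wild-type fragment. Of 5 leukocyte markers, 2 were higher in the knockout library and 0 lower, and the list summed to 277.6 CPM there and 51.0 CPM in the wild-type library (CPM is the count relative to the scaled library size). LCP1, an actin-bundling protein, made up nearly all of this and was 5.44-fold higher, CD14 had 38 knockout and 7 wild-type fragments (ratio 6.33, 2.79 to 16.8), and the defining markers PTPRC and CD3E had at most 2 fragments in either library. None of 4 markers of fibroblasts and pericytes was higher and 2 were lower, COL1A2 (0 knockout and 14 wild-type fragments) and LUM (79 knockout and 251 wild-type), with a sum of 2.11 CPM in the knockout and 5.34 CPM in the wild-type library. The 3 endothelial markers had at most 4 fragments each. The part of these markers in the LINC values was not tested. Less RNA per cell and fewer cells with the RNA cannot be told apart in such bulk libraries.

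A count of 3 fragments corresponded to 0.0577 CPM in the knockout and 0.0494 CPM in the wild-type library. Intervals and floors cover counting error only, not variation between libraries, and they treat every fragment as an independent molecule. Fragments without molecular identifiers are not independent molecules, so the intervals can be too narrow even for counting error.

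The start regions of 4 members are printed first, because they show how different the starts of genes with this name are. LINC00472, LINC00476 and LINC00479 were among the members that were higher in the knockout library. LINC00460 was not called lower but had the lowest ratio of the members with at least 50 fragments in the higher library. The start regions used here held none for LINC00475 and LINC00319, which were also higher, so theirs are not printed. Each sequence is the RefSeq region from 250 bases before to 50 bases after the start on GRCh38.p14, read 5′ to 3′ on the gene's own strand, and capitals mark each CG dinucleotide. The regions are chr6:71420696-71420995, minus strand, for LINC00472, chr9:95875928-95876227, minus strand, for LINC00476 (RefSeq symbol ERCC6L2-AS1), chr21:41715726-41716025, minus strand, for LINC00479, and chr13:106376314-106376613, plus strand, for LINC00460.
LINC00472: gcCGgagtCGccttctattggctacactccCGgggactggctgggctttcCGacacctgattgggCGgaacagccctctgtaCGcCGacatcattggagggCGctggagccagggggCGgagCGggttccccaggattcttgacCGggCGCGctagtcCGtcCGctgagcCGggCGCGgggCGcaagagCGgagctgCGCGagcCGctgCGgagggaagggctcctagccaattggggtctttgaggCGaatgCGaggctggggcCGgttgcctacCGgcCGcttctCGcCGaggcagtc
LINC00476: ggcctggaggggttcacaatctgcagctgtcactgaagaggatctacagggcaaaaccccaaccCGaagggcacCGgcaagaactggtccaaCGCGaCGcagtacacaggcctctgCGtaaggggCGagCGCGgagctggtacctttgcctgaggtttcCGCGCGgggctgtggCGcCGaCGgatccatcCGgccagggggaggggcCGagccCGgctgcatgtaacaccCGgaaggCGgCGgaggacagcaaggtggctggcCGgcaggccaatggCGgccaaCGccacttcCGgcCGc
LINC00479: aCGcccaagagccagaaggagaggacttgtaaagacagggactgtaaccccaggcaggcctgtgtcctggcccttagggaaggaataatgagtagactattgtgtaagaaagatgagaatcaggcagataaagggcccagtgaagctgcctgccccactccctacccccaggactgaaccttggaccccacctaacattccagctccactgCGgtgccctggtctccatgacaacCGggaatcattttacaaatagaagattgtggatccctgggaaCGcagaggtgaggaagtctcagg
LINC00460: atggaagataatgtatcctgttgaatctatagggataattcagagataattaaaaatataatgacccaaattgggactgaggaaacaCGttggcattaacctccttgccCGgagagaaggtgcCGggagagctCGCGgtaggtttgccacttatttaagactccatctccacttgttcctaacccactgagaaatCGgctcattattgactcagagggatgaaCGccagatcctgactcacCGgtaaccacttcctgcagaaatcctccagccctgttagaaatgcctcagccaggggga

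The LINC00472 region held 31 CG dinucleotides and the LINC00476 region 26, against 4 for LINC00479 and 8 for LINC00460. The median over all 35116 start regions of the RefSeq table was 14. The CCAAT box was searched as CCAAT on both strands. It occurred 5 times in the LINC00472 region, once in that of LINC00476 and once in that of LINC00460. It was in 34.6% of all start regions and in 24 of the 89 members with a single start region (27.0%). The GC box, searched as GGGCGG on both strands, occurred 2 times in the LINC00472 region, in 45.0% of all regions and in 27 of the 89 members (30.3%). The AP-1 motif TGACTCA, searched on both strands, occurred 2 times in the LINC00460 region. It was in 4.95% of all regions and in 7 of the 89 members (7.87%). The regions of LINC00152 (ratio 0.820) and LINC00346 (ratio 1.57) also held it 2 times, so it was not particular to LINC00460. These letter matches are descriptions of the sequence and no evidence of binding. A further 9 members had several start regions and were left out of these counts.

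Most LINC genes were silent or close to it in both libraries. At least 1 fragment was counted for 81 members in the knockout library (60.4%) and for 74 in the wild-type library (55.2%), against 78.7% and 76.6% of all gene rows. The fragments of 64 members appeared in both libraries, those of 17 in the knockout library only and those of 10 in the wild-type library only, and 43 had none. These are 12.7% and 7.46% of members seen in the knockout or the wild-type library only, against 5.27% and 3.13% of all gene rows. None of the members seen in 1 library only had more than 5 fragments there, and the counting interval of the ratio excluded 1 for LINC00536 alone. If the deeper wild-type library is thinned to the total of the knockout library, 71.5 members would be seen in it on average. Among members with a fragment, the median was 13 fragments in the knockout and 19.5 in the wild-type library, compared with 556 and 733 for all genes.

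A level of 1 RPKM, the authors' measure of reads relative to gene length and library total, was reached by 18 members in the knockout and 13 in the wild-type library (13.4% and 9.70%). Of all gene rows, 48.1% and 47.3% reached it. All LINC fragments together came to 11153 in the knockout library (Poisson 95% interval 10947 to 11362) and 10792 in the wild-type library (10589 to 10998). On the scaled level this was 214.4 CPM in the knockout and 177.9 CPM in the wild-type library, a ratio of 1.21 (1.17 to 1.24). Much of this difference came from LINC00094 (44.5 CPM in the knockout, 30.4 in the wild type) and LINC00476 (18.6 and 8.27 CPM). Both overlap a gene not named LINC, and LINC00094 is protein-coding in RefSeq. Of the 61 members with at least 10 reads over both libraries, 20 had a log2 ratio below 0. The summed ratio is therefore not that of a typical member. The 5 members with the most fragments, picked in each library separately, held 49.8% of the LINC fragments in the knockout and 50.7% in the wild-type library. These sets are not identical, and in both a few genes make up much of the summed level.

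Several of the most abundant LINC genes are no longer classed as non-coding. RefSeq listed 119 of the 134 members as lncRNA, 13 as protein-coding and 1 as a transcribed pseudogene, and 1 had no match. The first in rank was LINC00493 (hg19 chromosome 20, 18548073 to 18550203), now SMIM26, which encodes a small membrane protein of mitochondria. It stood at 24.3 RPKM in the knockout and 19.96 RPKM in the wild-type library. LINC00116, now MTLN, encodes mitoregulin, a micropeptide of the inner mitochondrial membrane, and had 4.55 and 5.35 RPKM in the knockout and wild-type libraries. Both genes differed little between the libraries: the ratio of scaled fragments was 1.15 (1.05 to 1.27) for LINC00493 and 0.805 (0.718 to 0.902) for LINC00116. Near-identical sequence lies beside LINC00116 in a duplicated stretch of chromosome 2 that also holds LIMS3, which makes its count uncertain.

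LINC00094, now BRD3OS, overlaps the chromatin reader gene BRD3 and had 5.80 RPKM in the knockout and 3.75 RPKM in the wild-type library, with a ratio of 1.47 (1.38 to 1.56). BRD3 itself had a ratio of 1.68 (1.58 to 1.77). Whether counting used strand is not given in the sources used here, so reads of overlapping genes cannot be told apart. LINC00085, now part of the sperm gene SPACA6, had 2.82 and 3.84 RPKM in the knockout and wild-type libraries and a ratio of 0.697 (0.613 to 0.792). In all, 4 of the 15 most abundant members were protein-coding by RefSeq, against 13 of 134 members in all. LINC00086 and LINC00087 both correspond to the paralogues SMIM10L2A and SMIM10L2B, so their counts are uncertain. They had 7 and 41 knockout fragments, against 20 and 19 wild-type fragments.

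**Figure D1:**
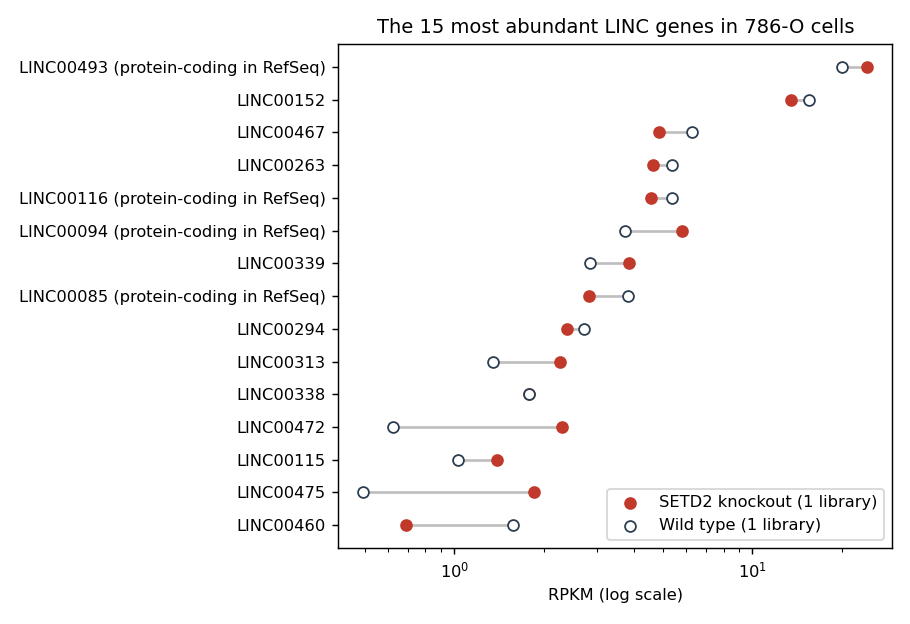
RPKM (log scale) of the 15 LINC genes with the highest mean RPKM over both libraries. Filled points are the SETD2 knockout library and open points the wild-type library, 1 library each. LINC00472 (2.30 RPKM in the knockout, 0.620 in the wild type) and LINC00475 (1.85 in the knockout, 0.496 in the wild type) have the widest gaps, and the points of LINC00338 coincide.

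Of the abundant members that are still classed as lncRNA, LINC00152, now CYTOR, was highest. This cytoplasmic RNA is raised in many carcinomas, and it has a near-identical copy elsewhere on chromosome 2, so reads may be shared with that copy. It was counted in 890 knockout and 1266 wild-type fragments (13.4 and 15.5 RPKM, ratio 0.820, 0.752 to 0.894). LINC00467 had 257 and 409 fragments in the knockout and wild-type libraries, or 4.87 and 6.29 RPKM, with a ratio of 0.733 (0.625 to 0.859). LINC00263, now OLMALINC, is known from oligodendrocytes and lies next to SCD, the stearoyl-CoA desaturase gene. It had 319 knockout and 454 wild-type fragments (4.64 and 5.36 RPKM), a ratio of 0.820 (0.708 to 0.948), beside 0.811 (0.801 to 0.822) for SCD.

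LINC00294 and LINC00338 differed little as well. LINC00294 had 2.38 RPKM in the knockout and 2.72 RPKM in the wild-type library (ratio 0.828, 0.741 to 0.925). LINC00338, now SNHG20, hosts the small Cajal body RNA SCARNA16 and had 1.78 RPKM in both (ratio 0.948, 0.804 to 1.12). LINC00339 stood at 3.87 RPKM in the knockout and 2.85 RPKM in the wild-type library (ratio 1.28, 1.09 to 1.51), and LINC00115 at 1.39 RPKM in the knockout and 1.03 RPKM in the wild-type library (ratio 1.28, 0.985 to 1.66). The interval excluded 1 for LINC00339 and included it for LINC00115.

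Members were called higher or lower where the exact 95% counting interval lay wholly beyond 2-fold, and 61 of the 134 members had the 10 reads over both libraries that were required. Of these 61 members, 5 were higher in the knockout library (8.20%) and 0 were lower. Over all 16894 genes tested, 5.75% were higher and 3.37% were lower. The share of higher members was thus close to that of all genes, and with 61 members the absence of a lower one rests on a few genes. Among the other genes that RefSeq classes as lncRNA, 3.95% of 405 were higher and 0.741% were lower.

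The 5 higher members are on 3 chromosomes. LINC00472 (hg19 chromosome 6, 72124149 to 72130448) has been described as a tumour suppressor RNA in breast cancer. It was counted in 470 knockout and 156 wild-type fragments, or 2.30 RPKM in the knockout and 0.620 RPKM in the wild type, a ratio of 3.51 with an interval of 2.93 to 4.24. LINC00475 (chromosome 9, 94903749 to 94921890) had 258 knockout and 85 wild-type fragments, or 1.85 and 0.496 RPKM, and a ratio of 3.54 (2.76 to 4.58). In both genes the knockout library held about the same multiple of the wild-type level, and the intervals of the ratios overlap.

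LINC00319 (chromosome 21, 44869904 to 44873771) was counted in 243 knockout and 88 wild-type fragments, or 1.16 and 0.342 RPKM, with a ratio of 3.22 (2.51 to 4.16). LINC00476 (chromosome 9, 98568370 to 98638259) is now ERCC6L2-AS1, named as antisense to the DNA repair gene ERCC6L2. It had 968 knockout and 502 wild-type fragments (1.52 and 0.638 RPKM) and a ratio of 2.25 (2.02 to 2.51), just past the threshold. LINC00479 (chromosome 21, 43131680 to 43135935) had 29 knockout and 6 wild-type fragments, or 0.205 and 0.0344 RPKM, so its ratio of 5.64 has a wide interval of 2.30 to 16.6. The other 4 members passed 1 RPKM in the knockout library only.

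Just outside the rule was LINC00176, now the protein-coding C20orf204, with 93 knockout and 37 wild-type fragments and an interval of 1.98 to 4.42. With total count or upper quartile scaling it also passed. Ratios above 7 were seen in LINC00202 (14 knockout and 2 wild-type fragments, interval 1.88 to 74.0), LINC00323 (13 knockout and 2 wild-type, interval 1.72 to 69.2) and LINC00547 (7 knockout and 1 wild-type, interval 1.05 to 368). These members, chosen here after their values were seen, had too few fragments for the size of the difference to be known. LINC00536 had 5 knockout and 0 wild-type fragments, and the exact interval of its ratio starts at 1.07.

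At the other end stood LINC00460 (chromosome 13, 107028911 to 107030142), an RNA that is raised in several carcinomas. It was counted in 44 knockout and 124 wild-type fragments, or 0.690 and 1.58 RPKM, a ratio of 0.414. Its interval, 0.286 to 0.588, excluded 1 but crossed 0.5, so it was not counted as lower at 2-fold. LINC00260 (chromosome 1, 203699705 to 203700979) had 20 and 54 fragments in the knockout and wild-type libraries and a ratio of 0.432 (0.245 to 0.734). LINC00478, now MIR99AHG, the host of miR-99a and let-7c, had 13 knockout and 31 wild-type fragments (0.489, 0.235 to 0.962).

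**Figure D2:**
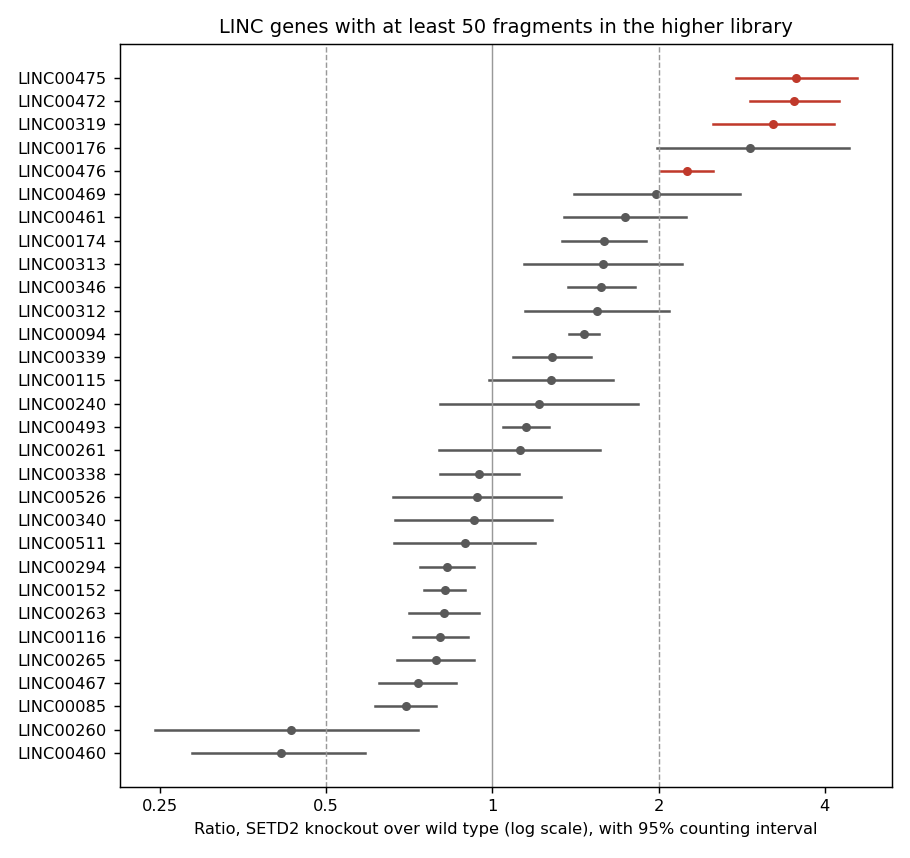
Ratio of scaled fragments, SETD2 knockout over wild type (log scale), for the 30 LINC genes with at least 50 fragments in the higher library. Points are ratios, bars are exact 95% counting intervals, dashed lines mark 0.5 and 2, and red marks members whose interval lies wholly above 2. The interval lies above 1 for 14 members and below 1 for 9.

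Other members with a known role or a widely used name gave mixed values. LINC00261, which lies beside the endoderm transcription factor gene FOXA2, had 73 knockout and 76 wild-type fragments (ratio 1.12, 0.801 to 1.57), while FOXA2 had 249 knockout and 413 wild-type fragments (0.703, 0.598 to 0.825). LINC00312 had 106 knockout and 80 wild-type fragments (1.55, 1.15 to 2.09), and LINC00346, now PRECSIT, had 483 knockout and 358 wild-type fragments (1.57, 1.37 to 1.81). LINC00511, described in breast and lung carcinoma, had 85 knockout and 111 wild-type fragments (0.893, 0.665 to 1.20). LINC00473, a target of the cAMP response factor CREB, had 1 knockout and 0 wild-type fragments and was not measurable. LINC00461, now MIR9-2HG, the host of a miR-9 precursor, had 158 knockout and 106 wild-type fragments (1.74, 1.35 to 2.25).

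The members leaned towards the knockout library. The median log2 ratio of the 61 members was 0.43 with quartiles of -0.16 and 1.17, and 41 of 61 members were above 0 (67.2%). Over all genes tested the median was 0.02 and 51.3% were above 0, and the other RefSeq lncRNA genes lay between, with a median of 0.22 and 63.2% above 0. All genes with few reads leaned the same way. Among genes with 10 to under 100 reads over both libraries, the median was 0.61 for 28 LINC genes and 0.51 for all 3218 genes.

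With 100 to under 400 reads the medians were 0.35 for 14 LINC genes and 0.30 for 1740 genes. The medians lay further apart among well counted genes: with 400 reads or more, the median was 0.35 for 19 LINC genes and -0.04 for 11936 genes. In that class 4 of 19 LINC genes were higher (21.1%), against 3.52% of all genes, and 2 of 141 other RefSeq lncRNA genes (1.42%), whose median was 0.10. The read classes were set after the values were seen, and 19 members are too few to call this particular to the LINC genes.

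**Figure D3:**
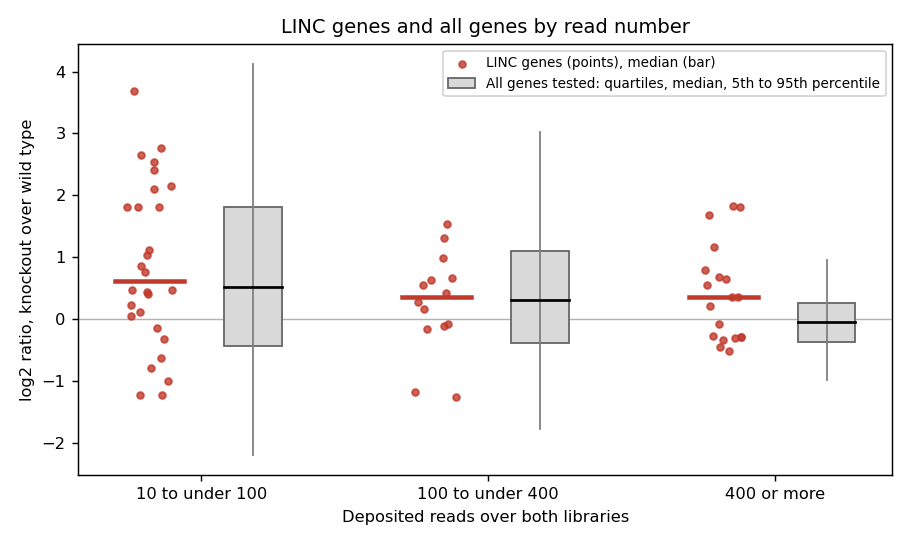
log2 ratio of knockout over wild type by number of deposited reads over both libraries. Red points are LINC genes with their median as a red bar, and grey boxes show all genes tested (quartiles, median and 5th to 95th percentile). The medians are close in the lower classes (0.61 and 0.51, 0.35 and 0.30) and apart in the highest (0.35 and -0.04).

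The median distance of the LINC genes to the nearest row not named LINC was 11.5 kb, and 22 of 134 members overlapped one despite the name intergenic. No such distance or share was computed for all genes. Overlapping pairs can share reads. LINC00260 lies within ATP2B4, a plasma membrane calcium pump gene, which was lower with 7338 knockout and 20591 wild-type fragments and a ratio of 0.416 (0.405 to 0.427), beside 0.432 for LINC00260. LINC00476 overlaps the row C9orf102, an older symbol of ERCC6L2, which had 976 knockout and 695 wild-type fragments and a ratio of 1.64 (1.48 to 1.81).

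Some pairs that did not overlap also had ratios on the same side of 1. LINC00467 lies 7.81 kb from TRAF5, a signalling adaptor of tumour necrosis factor receptors, which was lower at 172 knockout and 506 wild-type fragments (ratio 0.396, 0.332 to 0.472). Here the wider stretch of chromosome 1 was low too, as the 50 nearest expressed genes had a median log2 ratio of -0.48 and LINC00467 had -0.45. LINC00319 and LINC00313 (91 knockout and 67 wild-type fragments, ratio 1.58, 1.14 to 2.21) lie 22.9 and 35.0 kb from SIK1, a salt-inducible kinase gene with a ratio of 1.89 (1.82 to 1.95). LINC00312 lies 3.66 kb from LMCD1, a LIM domain gene that was higher (2336 knockout and 1247 wild-type fragments, ratio 2.18, 2.04 to 2.34).

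In other pairs the neighbours went apart in size or direction. ANKRD10, 8.23 kb from LINC00346, was 5.23-fold higher (4.94 to 5.55), with 6299 knockout and 1404 wild-type fragments, while LINC00346 had a ratio of 1.57. RIPK4, a kinase gene of the epidermis 23.6 kb from LINC00479, had a ratio of 0.862 (0.835 to 0.890). EFNB2, an ephrin gene 111.9 kb from LINC00460, had a ratio of 0.662 (0.625 to 0.701). The row nearest to LINC00472, MIR30A, had 3 knockout and 2 wild-type fragments, and LOC100128076, the row nearest to LINC00475, had 75 knockout and 62 wild-type fragments (1.41, 0.994 to 2.01).

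Over the 53 members whose nearest gene had at least 10 reads, 37 (69.8%) had a log2 ratio of the same sign as that gene. Of all 61 members tested, 67.2% were above 0, and no share of like signs was computed for pairs of other genes. Some pairs share a neighbour, such as RIPK4 for LINC00112 and LINC00479 and SIK1 for LINC00313 and LINC00319. Across these pairs, Pearson's r of the log2 ratios was 0.44 and Spearman's rho 0.47. Over the 25 members with at least 100 fragments r was 0.46 and rho 0.45. These are descriptions across genes of the same 2 libraries, and the pairs share the library, the chromosome stretch and, where they overlap, reads. After the median of the 50 expressed genes around each member was subtracted, the members' median log2 ratio was 0.37, compared with 0.43 before. The genes around each member needed 100 reads, so the lean of genes with few reads was not removed. For the 5 higher members that difference was 1.78 (LINC00472), 1.63 (LINC00475), 1.39 (LINC00319), 0.98 (LINC00476) and 2.21 (LINC00479). These members were called for ratios beyond 2-fold and the local medians of the tested members ran from -0.76 to 0.52. Differences above 0 were therefore fixed in advance.

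**Figure D4:**
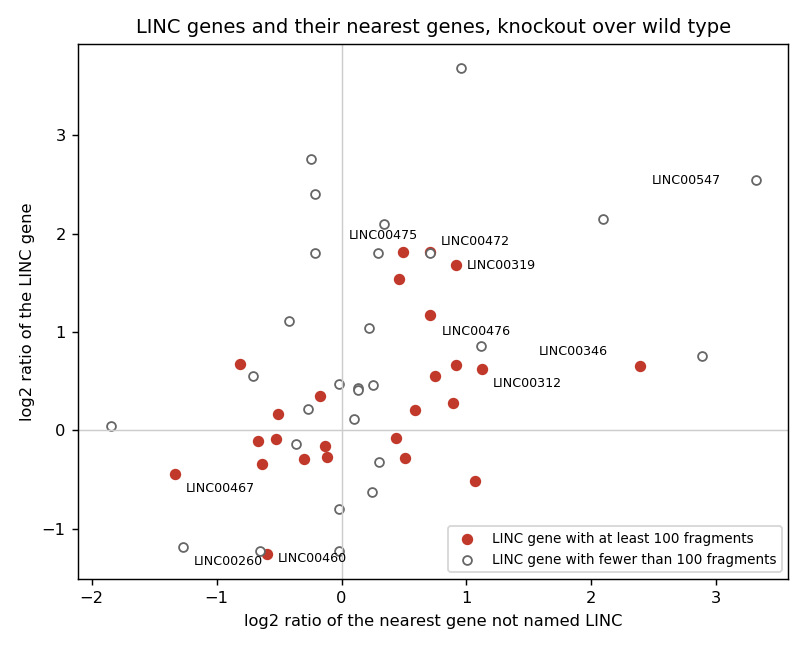
log2 ratio of knockout over wild type for LINC genes (vertical axis) against that of the nearest gene not named LINC (horizontal axis), for 53 pairs. Filled points are LINC genes with at least 100 fragments over both libraries. LINC00260 and LINC00467 sit low with low neighbours, LINC00346 sits far right, below its neighbour ANKRD10, and the sparsely counted LINC00547 lies near POSTN, whose ratio was 11.1 (3.99 to 42.7).

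Members were unevenly spread over the chromosomes, with 24 on chromosome 21 and 15 on chromosome 13. Of the 24 on chromosome 21, 11 had enough reads, with a median log2 ratio of 0.86, and 2 were higher, LINC00319 and LINC00479. Among all 177 genes tested on chromosome 21 the median was 0.13 and 11.9% were higher. The 3 members with enough reads on chromosome 9, LINC00094, LINC00475 and LINC00476, had log2 ratios above 0, as did 64.1% of the 697 genes tested there, of which 7.75% were higher.

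Among the members with a single RefSeq start region, the median number of CG dinucleotides there was higher in abundant ones, but this rests on few genes. The median was 13 for the 13 members with at least 1 RPKM in either library, with a range of 1 to 31. It was 5 for 29 other members with enough reads and 5 for 29 members without a fragment. At least 10 CG dinucleotides were found in 7 of those 13 abundant members, in 10 of the 29 less abundant ones and in 8 of the 29 silent ones, against 56.4% of all RefSeq start regions. Of those 7, LINC00094 (28), LINC00116 (25) and LINC00493 (26) are protein-coding in RefSeq. LINC00472 (31) and LINC00476 (26) reached 1 RPKM in the knockout library only. The protein-coding LINC00085 (5) and LINC00346 (7), which reached 1 RPKM in the knockout library only, had fewer than 10. Abundance and a CG-rich start did not always go together: the LINC00152 region held 5 and the LINC00460 region 8, while the LINC00493 region held 26.

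Well known long non-coding RNA genes with other names give a measure for these values. Of a list of 51, 43 were in the tables and 39 had enough reads, of which 0 were higher and 0 lower, with a median log2 ratio of 0.01. Most were far more abundant than the LINC genes. SNHG5, GAS5 and SNHG6, which host small nucleolar RNAs, had the highest levels of the list. GAS5 stood at 80.9 RPKM in the knockout and 117 RPKM in the wild-type library (ratio 0.652, 0.625 to 0.679), SNHG5 at 190.8 RPKM in the knockout and 212.6 RPKM in the wild-type library, and SNHG6 at 110.7 RPKM in the knockout and 103.9 RPKM in the wild-type library. MALAT1, an RNA of nuclear speckles, had a ratio of 0.909 (0.895 to 0.924), and NEAT1, the scaffold of paraspeckles, a ratio of 1.19 (1.15 to 1.23).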

How the data were processed

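The deposited tables hold, per the file headers, raw read counts per gene and RPKM values. Per the submitters' processing notes, hg19, TopHat2 2.0.6, Bowtie and HTSeq were used. Strand use and settings were not given in these sources, nor was the annotation release. All deposited counts were even (0 odd), and were halved to fragments, although the design assumed reads. The authors' RPKM served for levels only. The Y rows of 23 genes with an X row were dropped from 23398 rows. Libraries were scaled by TMM (edgeR 4.0.16, R 4.3.3). Genes with at least 10 reads received exact conditional (Clopper-Pearson) 95% intervals, and log2 ratios used 0.5 added fragments. No p-value was computed. The interval rule was run on simulated Poisson counts, the error it assumes, which checks the calculation and not variation between libraries. RefSeq classes were matched by symbol or synonym (103 and 30 members). Nearest genes came from hg19 coordinates; the 50 nearest needed 100 reads. Named members were the 15 most abundant by RPKM, called members with at least 50 fragments, members with 20 or more fragments against 0 (there were none), and those with a known role. Members and lists were chosen with earlier results of these data known. Members named by fragments, neighbours or other lncRNA values outside these rules were chosen after seeing the data. Alternatives included DESeq2 1.42.0 size factors. Some markers of the fixed lists are not reported here.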

Additional observations from a re-analysis of the deposited data

How the results depend on the processing

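The count of 5 higher and 0 lower LINC genes became 3 higher with a 99% interval, which dropped LINC00476 and LINC00479, and 9 higher with undivided reads. It became 18 higher and 5 lower by a ratio beyond 2-fold without an interval, and 8 higher and 1 lower (LINC00460) with an interval beyond 1.5-fold. Over all genes, 971 higher and 569 lower became 2278 and 1316 without an interval, and 1756 and 1550 at 1.5-fold. Total count and upper quartile scaling gave 6 higher each (LINC00176 was added), and DESeq2 size factors 5. The median log2 ratio ran from 0.33 (at least 50 reads) to 0.55 (at least 1 read), and that of all genes from 0.01 to 0.09 over these scalings. The mean over the LINC genes was 0.58. With at least 5 fragments, 59 members were detected in the knockout and 49 in the wild-type library. Leaving out members that overlap a row not named LINC left 4 of 48 higher, and RefSeq lncRNA alone 5 of 52. Both limits, the thinning and the suffixed symbols were chosen after seeing the data. All 63 rescaled ratios of the named members stayed within their counting intervals. Each scaling multiplies all ratios by a common small factor, so these are not 63 separate checks. No paired analysis was possible because each group has 1 library, and none could be left out. Of the 134 members, 73 had under 10 reads and received no call.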
